A study of Mus musculus with 4 samples.

Results

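The heat shock chaperone genes examined were the 10 genes Hspa1a, Hspa1b, Hsph1, Hspa8, Hspb1, Hsp90aa1, Hsp90ab1, Dnajb1, Hsf1 and Hspd1, taken as all probe sets annotated to these symbols. Of them 8 genes had a probe set, 20 probe sets in all, out of 18193 genes and 45037 probe sets on each array. Hsp90ab1 and Hsf1 had none under these symbols in the annotation used and were not analysed here. The genes were picked with their ratios in these arrays already known, so the values below describe the arrays and were not tested. RNA of Peyer's patches (PP), the lymphoid nodules of the gut wall, and of intestinal epithelial cells (IECs) was hybridized to 4 Affymetrix 3′ expression arrays, 1 per tissue and group. All mice were C57BL/6 and were kept in vinyl isolators, and the general methods for giving bacteria to mice name an age of 4 weeks, without tying it to these arrays. Control mice were germ-free (GF), and the others were GF mice that had received 100000000 L.NK318.1, a Lactobacillus strain, as their sole gut bacterium, with cells taken after 2 weeks. The legends describe pooled mice, so the difference between mice of a group was not measured.

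Heat shock proteins are chaperones, which bind unfolded proteins and help them to fold or to be degraded. HSF1, the heat shock factor, is released when unfolded proteins accumulate, forms trimers and binds repeated heat shock elements in front of the inducible genes. Hspa1a and Hspa1b encode the inducible HSP70, Dnajb1 the J-domain partner that brings it substrates, and Hsph1 an HSP110 that exchanges its nucleotide, while Hspa8 encodes the HSP70 made in unstressed cells. Inducible HSP70 and HSP25, the product of Hspb1, are known in gut epithelium as proteins that vary with the resident bacteria.

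Hspa1a and Hspa1b lie on chromosome 17 with 10120 bases between them. Their 5′ flanks are shown because both genes stood together near the top of the PP comparison. Probes may not tell these near-identical copies apart, but the flanks lie before the start site and do not show this. Probe and transcript sequences were not compared. Over the 250 bases before the start site 247 were identical. A heat shock element is a run of the letters GAA and their inverse TTC with NN between them, and the capitals mark such a pair, GAANNTTC, on the mouse build GRCm38.p6 in the RefSeq promoter windows, written 5′ to 3′ on the minus strand, chr17:34972157-34972406 for Hspa1a and chr17:34959239-34959488 for Hspa1b.
Hspa1a: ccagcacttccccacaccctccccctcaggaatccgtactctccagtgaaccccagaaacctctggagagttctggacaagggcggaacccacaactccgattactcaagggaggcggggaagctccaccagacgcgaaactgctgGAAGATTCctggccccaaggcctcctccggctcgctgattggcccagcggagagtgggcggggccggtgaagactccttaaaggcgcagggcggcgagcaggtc
Hspa1b: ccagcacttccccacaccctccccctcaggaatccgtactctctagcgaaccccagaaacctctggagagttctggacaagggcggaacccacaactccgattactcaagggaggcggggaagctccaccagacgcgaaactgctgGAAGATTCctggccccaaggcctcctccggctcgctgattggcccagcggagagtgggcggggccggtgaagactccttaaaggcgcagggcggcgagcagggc
In both genes the pair was at positions -104 to -97 from the start site.

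Shorter stretches of Hsph1, Hspb1 and Hspd1 are shown to compare their elements with those of the Hspa1 pair. Capitals mark the pairs GAANNTTC and TTCNNGAA, which read the same on both strands, and the longer triple, which is GAANNTTC followed by NN and GAA, or its reverse complement. Both strands were searched, and each triple also contains both pairs. The stretches are chr5:149636350-149636375 and chr5:149636282-149636306 for Hsph1, before and after its start and both on the minus strand, chr5:135887796-135887834 on the plus strand for Hspb1, and chr1:55088053-55088082 on the minus strand for Hspd1.
Hsph1, before the start: gaatctTTCTCGAAggctcgagaaga
Hsph1, after the start: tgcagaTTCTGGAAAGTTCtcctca
Hspb1: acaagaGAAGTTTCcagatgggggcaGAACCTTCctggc
Hspd1: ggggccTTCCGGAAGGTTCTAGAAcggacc
The triple was found in 2 of the 6 genes that had a window, Hsph1 and Hspd1, where the Hspd1 stretch holds 2 overlapping copies. Among all genes with a window, 0.662% of 27025 held the triple. GAANNTTC was found in 5 of the 6 genes against 9.04% of all genes, and TTCNNGAA in 2 of the 6 against 9.60%. The 5 include Hspa1a and Hspa1b, whose near-identical flanks are not independent cases. Of 19 other genes that HSF1 is known to drive and that had a window, 3 held the triple, 8 GAANNTTC and 4 TTCNNGAA. Neither window of Dnajb1 held an exact copy of the triple or of either pair. Only exact copies were searched in all windows, so elements with a changed letter would have been missed. Hspa8, Hsp90aa1, Hsp90ab1 and Hsf1 had no window in the table.

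**Figure D1:**
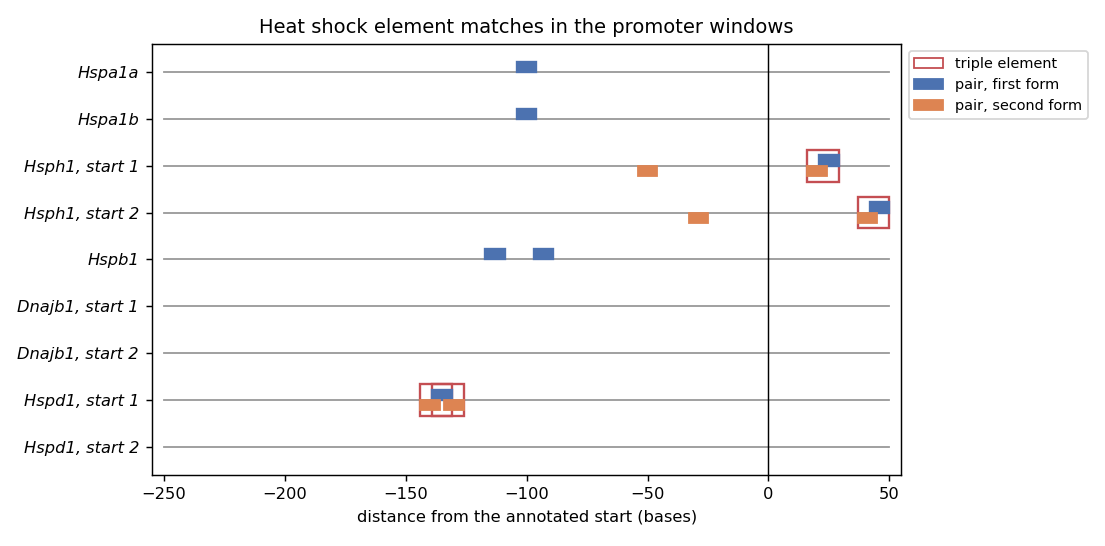
Positions of the heat shock element letters around the RefSeq start sites of the heat shock genes with a promoter window; the x axis is the distance from the start site in bases, each line is 1 window, and start 1 and start 2 are alternative starts; open boxes are the triple, and the first and second form of the pair are GAANNTTC and TTCNNGAA. The Hspa1a and Hspa1b marks sit at the same place, and the Dnajb1 lines and start 2 of Hspd1 are empty.

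Between 59.1% and 61.0% of probe sets were above a floor of 15.5 on each array, and lower signals were raised to it. Genes above the floor on at least 1 array of a tissue were taken as measured there, which held for 12736 genes in PP and 13874 in IECs. The tissue names were checked on markers. In all, 6 leukocyte markers summed to 12053 and 12444 in GF and colonized PP and to 824 and 360 in IECs, and 10 epithelial markers to 6886 and 6271 in PP and to 57559 and 42356 in IECs. In PP most of the epithelial sum was Lyz1 (6682 and 6079), and Vil1, Fabp2 and Muc2 were under the floor. The paired arrays differed in ways other than colonization. Xist, made in female cells, had 21.7 in GF and 4586 in colonized PP and 46.7 and 4889 in IECs, while Y-linked Eif2s3y, Kdm5d and Uty were above the floor only in GF, so sex and colonization cannot be told apart. Stromal and endothelial markers, 8 in all, summed to 426 and 317 in PP and 270 and 572 in IECs, and 5 macrophage and dendritic markers to 2425 and 1932 in PP and 231 and 221 in IECs. In IECs 6 gastric and acinar markers summed to 722 in GF and 23333 in colonized mice, and β-actin probes at the 3′ end were 2.73-fold and 4.10-fold as bright as those at the 5′ end, against 1.60-fold and 1.74-fold in PP. The part of these differences in the values below was not tested. In bulk RNA, fewer cells of a type and less RNA per cell cannot be told apart.

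In PP the inducible HSP70 genes were among the highest ratios of the array pair. Hspa1a gave 58.5 in GF PP and 180 after colonization, a log2 ratio of colonized over GF of 1.62, or 3.08-fold. In IECs the sign was opposite, with 740 in GF and 564 in colonized mice and a log2 ratio of -0.39. GF PP was thus the lowest of its 4 signals and GF IECs the highest.

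Hspa1b had the same signs. Its brightest probe set had 468 in GF and 1463 in colonized PP (log2 ratio 1.65, 3.13-fold) and 2092 and 1409 in IECs (-0.57). The second probe set had 164 and 589 in PP (1.85) and 922 and 686 in IECs (-0.43). The third had 247 and 822 in PP (1.73) and 1174 and 856 in IECs (-0.46), so all 3 pointed the same way within each tissue. In PP Hspa1b and Hspa1a ranked 9th and 10th from the highest of 12736 measured genes, and in IECs 12871st and 11955th of 13874. The genes are near-identical copies, so their probe sets may read each other's RNA and are not independent readings.

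Hsph1, the HSP110 exchange factor, was the only member higher by at least 2-fold in both tissues. Its signal was 498 in GF and 1131 in colonized PP (log2 ratio 1.18) and 338 and 907 in IECs (1.43). A weaker probe set had 101 and 213 in PP (1.07) and 54.2 and 137 in IECs (1.34). All 4 of these ratios lay on the same side of 2-fold. Its rank from the highest was 15 in PP and 152 in IECs. Of 12260 genes measured in both tissues, 2 were at least 2-fold higher in both (0.0163%), Hsph1 and Xist.

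The J-domain gene Dnajb1 had 680 in GF and 1115 in colonized PP, a log2 ratio of 0.71, and 1055 and 997 in IECs, a ratio of -0.08. Its other probe set had 208 and 300.4 in PP (0.53) and 432 and 394 in IECs (-0.13). Like the HSP70 pair, it was higher in colonized PP and not in colonized IECs. Hspb1, which encodes the small heat shock protein HSP25, had the larger ratio in IECs. It had 61.5 and 70.7 in PP (0.20) and 86.0 and 132 in IECs (0.62), and its other probe set 34.3 and 42.9 in PP (0.32) and 39.2 and 78.5 in IECs (1.00).

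Hsp90aa1, the inducible cytosolic HSP90, had 1641 and 1918 in PP and 1591 and 1876 in IECs, log2 ratios of 0.23 and 0.24. Of its other 4 probe sets, 1 had 761 and 840 in PP (0.14) and 736 and 1226 in IECs (0.74), and another 1293 and 1539 in PP (0.25) and 1454 and 2841 in IECs (0.97). The remaining 2 were under the floor in PP, and 1 of them, at 19.9 and 21.9, was above it in IECs. For this gene the IEC ratio therefore depended on the probe set. Of the constitutive genes, Hspa8, the HSP70 of unstressed cells, had 4431 and 5565 in PP (0.33) and 5395 and 6009 in IECs (0.16). Its rank from the highest ratio was 555 in PP and 4953 in IECs. Its other 3 probe sets gave ratios from 0.29 to 0.49 in PP and from 0.19 to 0.37 in IECs. Hspd1, the mitochondrial chaperonin HSP60, had 746 and 799 in PP (0.10) and 1436 and 1766 in IECs (0.30).

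**Figure D2:**
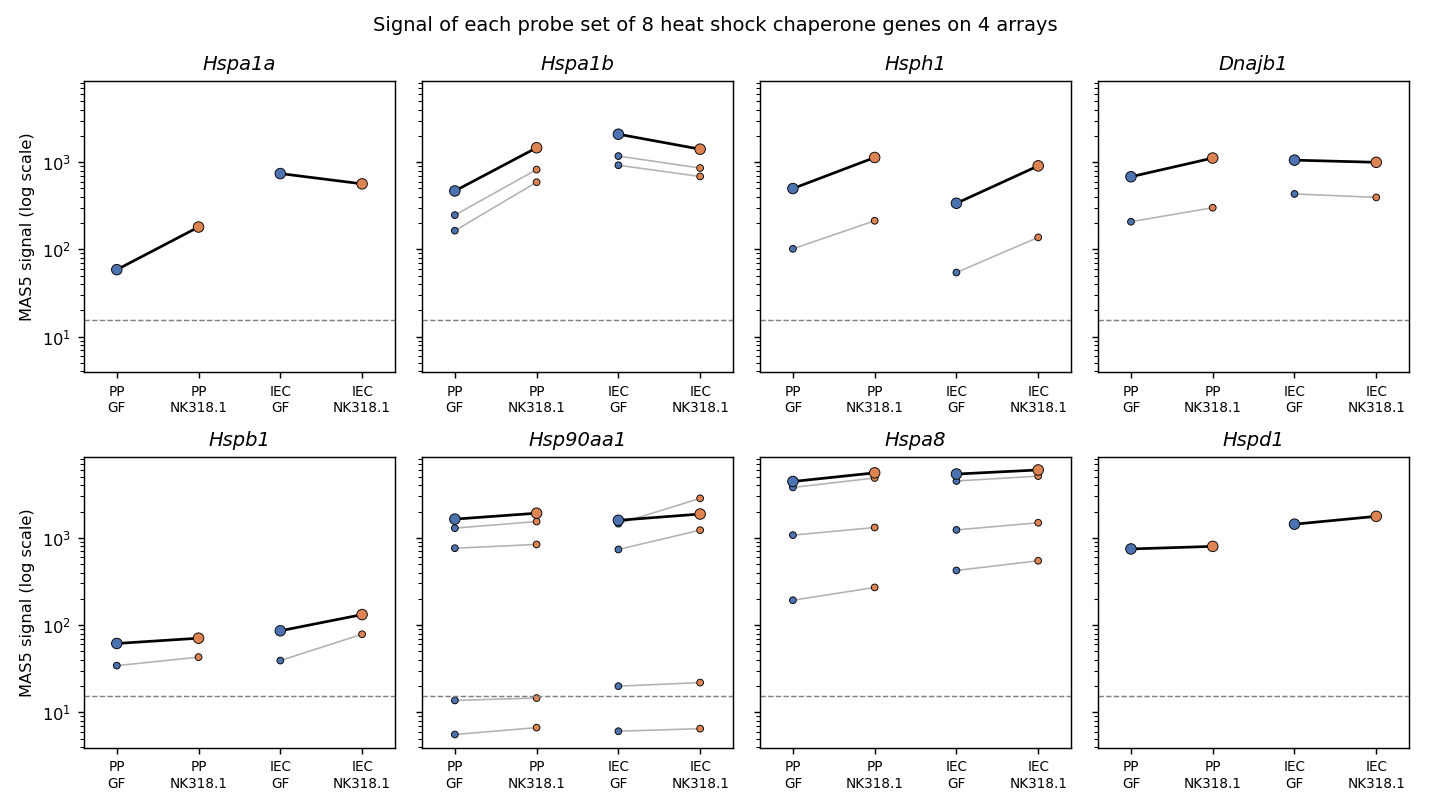
Deposited signal of each heat shock gene on a log axis in the 4 arrays, 1 panel per gene and 1 point per array and probe set; black lines mark the probe set that stands for the gene, grey lines its others, and the dashed line the floor. There are no error bars because each group had 1 array. Hspa1a and Hspa1b are lowest in GF PP, and both probe sets of Hsph1 are higher after colonization in both tissues.

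**Figure D3:**
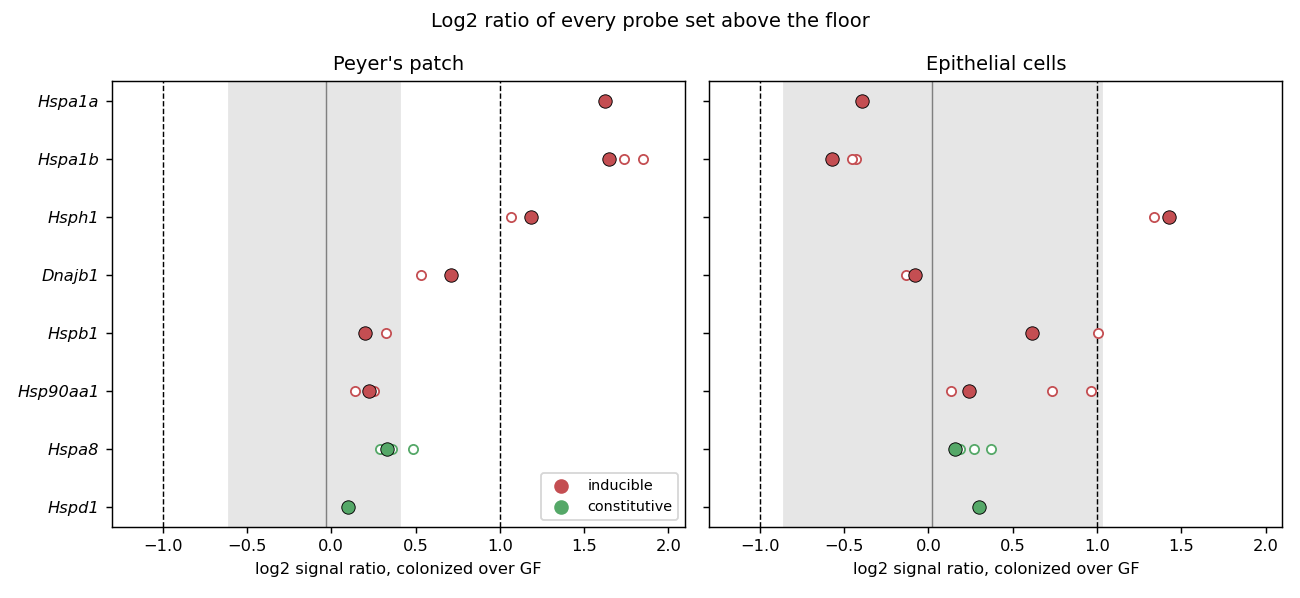
Log2 ratio of colonized over GF for every measured probe set of the heat shock genes, in PP and in epithelial cells, with the central 95% of all measured genes (grey band) and their median (grey line). Filled points stand for the gene, open points are its other probe sets, and dashed lines mark 2-fold. In PP all probe sets of Hspa1a, Hspa1b, Hsph1 and Dnajb1 and 1 of Hspa8 lie above the band.

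Among the 8 genes, 3 were at least 2-fold higher in colonized PP (0.149% of all measured genes were) and 0 lower (0.573%). In IECs 1 was at least 2-fold higher (2.63% of all) and 0 lower (1.54%). These counts are of members chosen with these results in view and describe the choice. All 8 had a log2 ratio above 0 in PP, where 42.5% of all genes did, and 5 in IECs, where 52.4% did. Their median was 0.52 in PP and 0.20 in IECs against -0.03 and 0.02 over all genes. Counted by probe set, 6 of 18 measured were at least 2-fold higher in PP (0.131% of all) and 3 of 19 in IECs (2.57%), and 0 were lower in either (0.409% and 1.35%). At 1.5-fold 4 genes were higher in PP (0.927% of all) and 2 in IECs (9.31%), with 0 lower in either (2.74% and 6.8%). At 4-fold 0 were higher (0.0314% and 0.469%) or lower (0.0628% and 0.209%).

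Grouped by known behaviour, 6 members were inducible (Hspa1a, Hspa1b, Dnajb1, Hspb1, Hsph1 and Hsp90aa1) and 2 with a probe set constitutive (Hspa8 and Hspd1). The exact elements did not follow these labels throughout. Hspd1 held the triple, in 2 overlapping copies, while the inducible Dnajb1 held no triple or pair. Hspe1, the partner of Hspd1, was listed with the other genes that HSF1 is known to drive. Medians with Hspd1 among the inducible genes were not computed. Hspa1a and Hspa1b both count among the 6, though their probe sets are not independent readings. The medians were not computed with this pair counted once. In PP the median log2 ratio of the inducible genes was 0.95, with a range from 0.20 to 1.65, and that of the constitutive genes 0.21, a difference of 0.73. In IECs the medians were 0.08 and 0.23, a difference of -0.15, while the inducible genes ranged from -0.57 to 1.43. The inducible genes thus spread over both sides of the constitutive ones in IECs. Their IEC median lay between Dnajb1 and Hsp90aa1. The Hsp90aa1 ratio depended on the probe set, so the IEC median and its difference from the constitutive one do as well. With Hsph1 and Hsp90aa1 set beside the constitutive genes the differences were 0.89 and -0.51.

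The log2 ratio in PP minus that in IECs was 2.02 for Hspa1a, 2.22 for Hspa1b and 0.79 for Dnajb1, and it was -0.24 for Hsph1 and -0.42 for Hspb1. A difference of 1 or more was found in 1.57% of 12260 genes. A ratio at least 2-fold in PP together with one below 0 in IECs was found in 5 of them (0.0408%), namely Hspa1a, Hspa1b, Cobl, LOC664787 and Pfn2, of which the last 3 were named after their values were seen. Of the 6 leukocyte markers, 3 were at least 2-fold lower in colonized IECs, where 1.54% of all genes were. The 3 were Ptprc (271 in GF and 23.1 in colonized), Cd3g (190.3 and 15.4) and Cd8a (79.3 and 17.9). Cd79a and Ms4a1 had log2 ratios of -0.70 and -0.65, and Cd3e was slightly higher, at 230.4 and 273. In PP the 6 ratios ran from -0.14 to 0.27. The part of leukocytes in the IEC ratios was not tested.

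**Figure D4:**
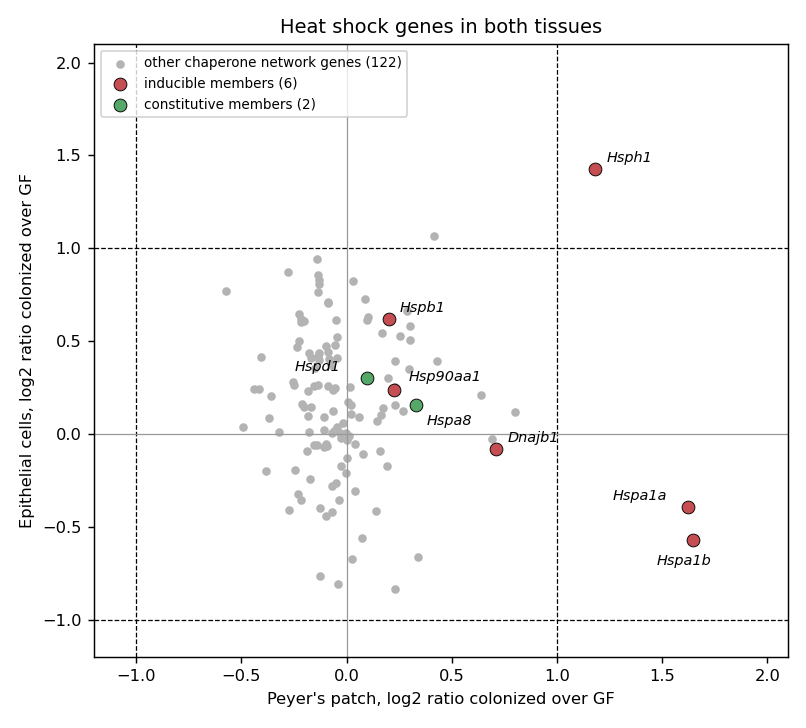
Log2 ratio of colonized over GF in PP (x axis) against epithelial cells (y axis) for the heat shock genes and 122 other chaperone network genes, 1 point per gene, with dashed lines at 2-fold. Hsph1 is past 2-fold on both axes, while Hspa1a and Hspa1b are past it in PP and below 0 in epithelial cells.

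Among the members, the GF arrays of the tissues lay furthest apart for the HSP70 pair. In GF mice the Hspa1a signal was 12.7-fold higher in IECs than in PP and that of Hspa1b 4.47-fold, against 3.13-fold and 0.96-fold in colonized mice. The other Hspa1b probe sets gave 5.62-fold and 4.75-fold in GF mice and 1.16-fold and 1.04-fold in colonized mice. Dnajb1 was 1.55-fold in GF mice and 0.89-fold in colonized mice, and its other probe set 2.08-fold and 1.31-fold. In GF and colonized mice, Hspb1 was 1.40-fold and 1.86-fold, Hspd1 1.92-fold and 2.21-fold, and Hspa8 1.22-fold and 1.08-fold. The other Hspa8 probe sets gave 1.15-fold to 2.19-fold in GF mice and 1.05-fold to 2.02-fold in colonized mice. Hsph1 was lower in IECs, at 0.68-fold and 0.80-fold. By the probe set that stands for the gene, Hsp90aa1 was nearly level, at 0.97-fold and 0.98-fold. Another of its probe sets had 0.97-fold and 1.46-fold, and a further one 1.12-fold and 1.85-fold, so the colonized value depended on the probe set. Of all genes 16% in GF mice were brighter in IECs than in PP by 2-fold or more and 18.5% were dimmer by as much, and in colonized mice 18.4% and 16.8%. Each tissue was a separate preparation, and preparation and tissue cannot be told apart.

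The wider chaperone network was read at the same 2-fold limit. Of 143 other network genes, written down from general knowledge, 122 were measured in PP and 129 in IECs. In PP 0 were at least 2-fold higher (0.149% of all genes were) or lower (0.573%). The median log2 ratio there was -0.07, and 33.6% lay above 0 against 42.5% of all genes. In IECs 1 was at least 2-fold higher (2.63% of all genes were) and 0 lower (1.54%). That gene was the HSP70-HSP90 adaptor Stip1 (97.9 in GF, 205 in colonized, log2 ratio 1.07). The median of the network in IECs was 0.15, and 67.4% lay above 0 against 52.4% of all genes.

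The lists overlap, and Dnaja1, Chordc1 and Stip1 stand in more than 1. Other genes that HSF1 is known to drive had 20 measured in PP, 14 of them above 0, with a median of 0.18. The highest were Dnaja1, a J-domain protein (1300 in GF and 2267 in colonized PP, log2 ratio 0.80), and Chordc1, an HSP90 co-chaperone (625 and 971, 0.64). In IECs these 2 gave 0.12 and 0.21, and the list's median was 0.21. The lowest in PP was Hmox1, heme oxygenase, at -0.32, and in IECs Dnajb4 at -0.66.

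The endoplasmic reticulum, mitochondrial and chaperonin lists differed in their medians between tissues. In PP 1 of 18 endoplasmic reticulum chaperones lay above 0, with a median of -0.19, and Hsp90b1, the HSP90 of that compartment, at -0.42. In IECs the same list had 13 of 18 above 0 and a median of 0.24, with the HSP70 gene Hspa5 at 0.42. The mitochondrial list had medians of -0.15 and 0.26, and the CCT chaperonin and prefoldin list -0.07 and 0.40. Both held 0 genes at least 2-fold apart by the probe set that stands for the gene, while a second probe set of Hspe1, the partner of Hspd1, gave 1.04 in IECs against 0.63 for the first and 0.17 against 0.10 in PP.

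The other network lists held no further gene past 2-fold in either tissue at the floor used. With a floor at the 25th percentile, the small heat shock proteins had 1 higher and the J-domain co-chaperones 1 lower in IECs. The co-chaperone and exchange factor lists had medians near that of all genes in PP. The J-domain list shares genes with the endoplasmic reticulum and mitochondrial lists, and the exchange factor list with the mitochondrial list. The PP medians were -0.06 for 37 J-domain co-chaperones, -0.07 for 11 nucleotide exchange factors and 0.05 for 18 HSP90 co-chaperones. In IECs these lists had 0.02, 0.26 and 0.23, and the highest after Stip1 among the HSP90 co-chaperones was Nudc (422 in GF and 810 in colonized, 0.94). The other HSP70 and HSP110 genes had medians of -0.09 in PP and 0.35 in IECs, the small heat shock proteins -0.09 and -0.03, and the heat shock factors and regulators -0.06 and 0.10. Of the small heat shock proteins, Cryab, the αB-crystallin of muscle and lens, was under the floor in PP and had 8.8 in GF and 27.4 in colonized IECs. Oxidative and metal stress genes had -0.30 and -0.23, with 0 at least 2-fold higher (0.149% of all genes) or lower (0.573%) in PP. In IECs 1 was at least 2-fold higher (2.63% of all genes), the quinone reductase Nqo1 (173 in GF and 430.1 in colonized, 1.31).

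Immediate early genes, which handling of tissue is known to switch on, had a median of -0.17 in PP and -0.28 in IECs. Past 2-fold in PP, 0 of 23 were higher and 2 lower (0.573% of all genes), Ccn1 (-1.72) and Dusp1 (-1.55). In IECs 0 of 24 were higher and 3 lower (1.54% of all), Egr3 (-1.89), Fosb (-1.25) and Nr4a1 (-1.21). The counts of lower genes moved with the processing, to 1 in PP when the floor was raised to the 60th percentile and to 5 in IECs after quantile normalization. In PP 1 gene was higher with a floor at the 25th percentile or none, and in IECs 1 was higher without the less specific probe sets. Their part in the member ratios was not tested.

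**Figure D5:**
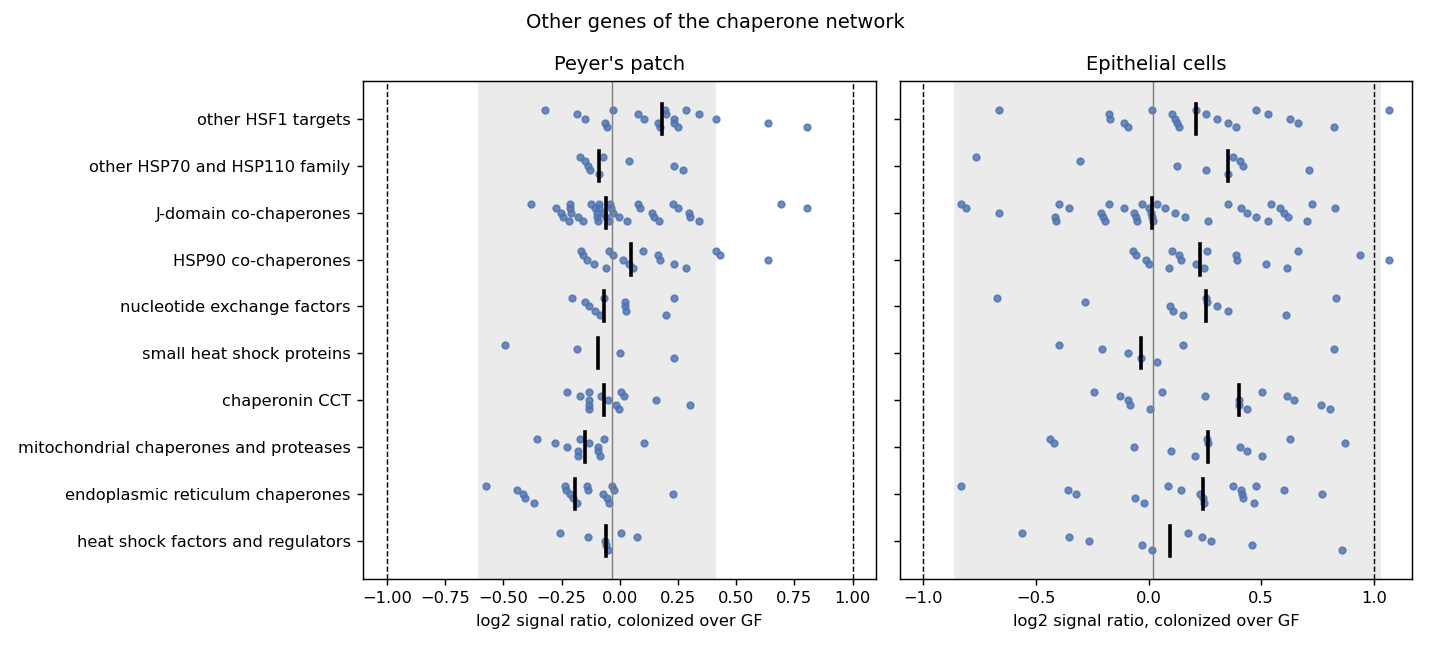
Median log2 ratio of colonized over GF for each of the chaperone network lists in PP and in epithelial cells, with the lists' measured members as points and the central 95% of all measured genes as a grey band. Black bars are the medians, the grey line is the median of all genes and dashed lines mark 2-fold. The band is the spread of single genes and is no measure for a median over a list. In PP no point reaches 2-fold, and in epithelial cells Stip1 does, in both lists that hold it.

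Over the 4 arrays the genes with the profile most like Hspa1b, by root mean square distance of centred log2 signals among 14349 genes, were Tmem170 (0.40), Defb1 (0.42), Dcdc2a (0.43), Efnb1 (0.43) and Vamp7 (0.43). Hspa1a was at 0.80, in place 5658, and Dnajb1 at 0.55, in place 168. Ranked by Pearson r, which leaves out the size of the differences, the order turned. Dnajb1 (r = 0.95) was in place 79 and Hspa1a (0.90) in place 159, ahead of the 5 genes above, which were in places 228 to 303. With 4 points, which share tissue and array, this ranking is a description.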

How the data were processed

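RNA of 4 groups was hybridized to 1 array each. The authors deposited MAS5 values, which are intensities on a linear scale; the MAS5 version and settings were not given in the sources used here. Intensities were used without further scaling, and 64 controls were set aside. Probe sets with no gene (9160) or several genes (932) in the annotation were left out, and 34945 remained for 18193 genes. Where a gene had several, the probe set brightest on average over the 4 arrays on the log2 scale stood for it. The floor was the 40th percentile of each array's intensity, taken as the median of the 4. The log2 ratio of colonized over GF was read at the 2-fold limit that the study's methods name; with 1 array per group no p-value, error or spread could be had, and the number of arrays limits the precision. The members, the gene lists and the classes were chosen with earlier results of these data known. Genes named beside the members are the ends of each list, the 5 profiles nearest to Hspa1b, tissue markers and sex-linked genes. Alternatives were median centring, quantile normalization, other floors, other probe set rules, other fold limits and a stricter inducible class. The procedure was tested on simulated data with changes planted in genes well above the floor. That checked the code and gives no error for the ratios here. Promoter windows are RefSeq's for GRCm38.p6. Python 3.11.15, numpy 2.4.6, pandas 2.3.3 and matplotlib 3.10.9 were used.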

Additional observations from a re-analysis of the deposited data

Results flagged for a closer look

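The ratio of Hspa1a was above 0 in the Peyer's patch and below 0 in epithelial cells, a difference of 2.02 on the log2 scale, and that of Hspa1b was 2.22. Each tissue had 1 array per group, so the difference was not tested.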

How the results depend on the processing

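No paired analysis was possible because a group held a single array. With a limit of 1.5-fold in place of 2-fold, 2 members were higher in epithelial cells, and with 4-fold 0 were higher in either tissue. The other 33 of 36 counts of members stayed within 1.5 times their value under median centring, quantile normalization, other floors, other probe set rules and other fold limits. All 112 member ratios computed under these alternatives stayed on their side of 2-fold with the same sign where called. Single probe sets were not tried in turn, and the weaker Hspb1 probe set alone gave 1.00 in epithelial cells, just past 2-fold. The difference between inducible and constitutive medians ranged from 0.64 to 0.89 in the Peyer's patch and from -0.51 to -0.07 in epithelial cells. No alternative counted Hspa1a and Hspa1b once, tried each Hsp90aa1 probe set in turn or counted Hspd1 as inducible. These ranges may therefore be too narrow. The ratio of Hsp90aa1 in epithelial cells ranged from 0.17 to 0.74 over these alternatives. Of 610 list counts 47 moved, and of 237 list medians 3. Without replicates the error of a ratio is unknown.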
